A study of Mus musculus with 6 samples.

Results

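Genes of fat breakdown were examined in inguinal white adipose tissue (iWAT, the subcutaneous fat pad of the groin) of *Hlx* transgenic mice and littermate controls. The 10 genes, chosen by name, were *Pnpla2*, *Pnpla3*, *Abhd5*, *Lipe*, *Mgll*, *G0s2*, *Hilpda*, *Abhd6*, *Ces1d* and *Ces1f*. Of these, 9 have a locus of their own among the 19445 loci of the table, and all 9 passed the expression filter described below. *Pnpla2* is listed only on a merged locus with *Cd151* and *Efcab4a*, so its value is that of 3 genes together and is given apart from the 9.

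The transgenic mice carried an *Hlx* cDNA behind the *aP2* (*Fabp4*) promoter, which is active in fat, and the wild-type (WT) mice were littermates without it. Both groups were 12 weeks old, on a background of C57BL/6 × SJL embryos backcrossed to C57BL/6, with 3 mice and 1 RNA-Seq library per mouse in each group. Hlx is a homeobox transcription factor, and the comparison asks how the transgene remodels iWAT toward a brown-like fat. The values are FPKM, which scale the reads of a gene for its length and for the size of the library, so they are comparable between genes of different length. A difference between the genotypes is given as a log2 fold change on the log2(FPKM + 1) scale, transgenic minus wild type. It was tested with limma, a linear model fitted to the 11692 loci whose average FPKM exceeded 1 in either genotype, and called at a Benjamini-Hochberg adjusted p under 0.05 over all of these loci.

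Lipolysis splits stored triglyceride into glycerol and fatty acids one chain at a time. Adipose triglyceride lipase (Pnpla2) with its coactivator Abhd5 removes the first chain, hormone-sensitive lipase (Lipe) acts on the diglyceride, and monoglyceride lipase (Mgll) finishes the reaction. G0s2 and Hilpda are small proteins that inhibit Pnpla2. In fat, noradrenaline starts the process through β-adrenergic receptors, cAMP and protein kinase A, and in brown fat the released fatty acids are fuel for, and activators of, heat production by Ucp1.

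*Hlx* itself had 110, 79.6 and 99.5 FPKM in the transgenic mice and 6.88, 7.35 and 8.14 FPKM in the wild-type mice, a log2 fold change of 3.51 (limma adjusted p = 0.000106). Each transgenic mouse was above each control. Summed FPKM per library ran from 466059 to 542096. The absolute depth is unknown, and the relative depth read from the lowest values ranged from 0.688 to 1.41 times that of wild-type replicate 3. The mice are labelled male, but the female-specific RNA *Xist* was between 20.2 and 33.6 FPKM in all 6 libraries, and 0 of 28 loci of the Y chromosome had a value above 0. All 8 common adipocyte markers, among them *Adipoq* and *Plin1*, averaged over 1 FPKM, so the defining markers of fat were present. Their summed level was between 33581 and 39643 FPKM in the transgenic mice and between 45202 and 60615 FPKM in the controls, with 3 of 8 called lower. Of these 3, *Cfd* averaged 6110 FPKM in the transgenic and 22266 FPKM in the wild-type mice. The others were *Adipoq*, at 1363 and 2481 FPKM, and *Lpl*, at 977 and 1560 FPKM. *Fabp4*, which was not called, averaged 26591 and 21945 FPKM. Of 8 brown-like adipocyte markers, 7 were called higher. Skeletal muscle markers (9 of 10 in the table, 0 of 8 tested called) summed to 67.1, 516 and 98.2 FPKM in the transgenic mice and 6.63, 98.8 and 27.2 FPKM in the controls. Macrophage markers (6 of 7 in the table, 3 called lower) summed to between 352 and 503 FPKM in the transgenic and between 746 and 946 FPKM in the wild-type mice. Summed levels of epithelial markers (9 of 10 in the table, *Wap* at 0 in all libraries) were between 150 and 312 FPKM in the transgenic and between 252 and 359 FPKM in the wild-type mice. In this bulk tissue, fewer cells of a type and less RNA per cell cannot be told apart.

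None of the 9 lipolysis genes with a locus of their own was called in either direction by limma, where 18.6% of the loci tested were called, 11.6% higher and 7.03% lower. At an unadjusted p under 0.05, 1 of the 9 passed (*Ces1f*), where 36.2% of the loci tested did. The genotypes did not overlap at 1 of the 9, again *Ces1f*, and at 42.9% of the loci tested. The log2 fold changes of the 9 ran from -0.69 to 0.21 with a median of 0.05, against a median of -0.01 for all loci tested, and 5 of the 9 were positive. A count of 0 did not hold under every scaling. With quantile normalization 3 of the 9 were called lower, and with levels taken relative to common adipocyte markers 5 of the 9 were called higher. The latter scaling moved the median log2 fold change of all loci tested from -0.01 to 0.45, and it was 0.24 with *Cfd*, the marker that differed most, left out of the markers, where 0 of the 9 were called.

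**Figure D1:**
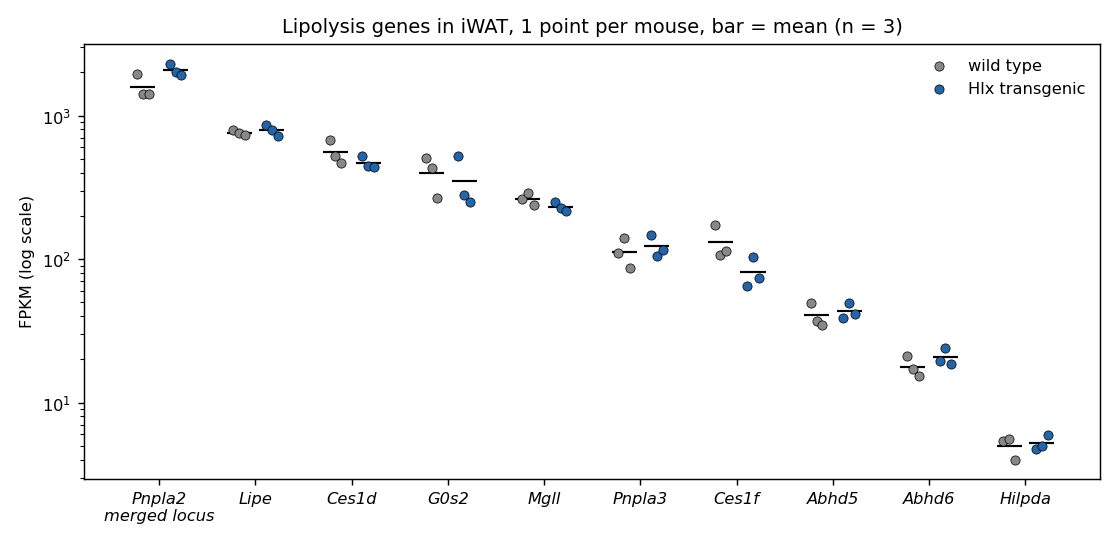
FPKM of each lipolysis gene (log axis) in each of the 3 wild-type mice (grey) and 3 *Hlx* transgenic mice (blue), with bars for the means and the genes in order of their mean. The levels span from between 4.004 and 5.92 FPKM for *Hilpda* to between 1409 and 2294 FPKM for the merged locus of *Pnpla2*, and the genotypes are apart only at *Ces1f*.

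The lipase that starts lipolysis could be read only through the merged locus, on chromosome 7 of mm10 from 141454590 to 141471798. The annotation places *Pnpla2*, *Cd151* (a tetraspanin) and *Cracr2b* (the current name of *Efcab4a*) there, all on the plus strand. This locus had 2294, 1995 and 1912 FPKM in the transgenic mice and 1954, 1409 and 1412 FPKM in the wild-type mice. Wild-type replicate 1 lay between transgenic replicates 2 and 3, so the groups overlapped. The log2 fold change was 0.39 (standard error 0.19, 95% confidence interval -0.05 to 0.83, limma adjusted p = 0.176). The share of this signal that comes from *Pnpla2* is not known from these values. Relative to common adipocyte markers the difference was 0.85 (adjusted p = 0.00098), and with *Cfd* left out of those markers it was 0.64 (adjusted p = 0.019), beside medians of all loci of 0.45 and 0.24.

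*Abhd5*, the coactivator of Pnpla2, lies on chromosome 9 from 122351616 to 122381524. It had 39.0, 49.8 and 41.7 FPKM in the transgenic mice and 49.8, 37.1 and 34.8 FPKM in the controls. The highest mouse of each genotype stood at the same level, and the ranges overlapped over nearly their whole width. The log2 fold change was 0.11 (95% confidence interval -0.26 to 0.47, limma adjusted p = 0.651), which bounds the ratio of transgenic to wild type between 0.836 and 1.39.

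The inhibitors of Pnpla2 differed from each other in level and in spread. *G0s2*, on chromosome 1 from 193272160 to 193273188, had 519, 281 and 251 FPKM in the transgenic mice and 506, 429 and 268 FPKM in the wild-type mice. The spread within a genotype was wide, with a coefficient of variation of 41.8% in transgenic and 30.3% in wild-type iWAT, the largest among the 9 genes. Its log2 fold change of -0.22 therefore had a 95% confidence interval from -1.003 to 0.56 (limma adjusted p = 0.663). The gene lies within *Lamb3* on the opposite strand, and the library kit does not mark strand. *Hilpda*, a hypoxia-inducible inhibitor on chromosome 6 from 29272488 to 29275449, was the lowest of the 9 genes. It had 4.73, 4.99 and 5.92 FPKM in the transgenic mice and 5.37, 5.56 and 4.004 FPKM in the controls. The lowest and the highest of the 6 values belonged to different genotypes, with the others interleaved between them, and the log2 fold change was 0.06 (95% confidence interval -0.25 to 0.38, limma adjusted p = 0.769).

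*Lipe*, the diglyceride lipase that protein kinase A phosphorylates, was the most abundant of the 9 genes, at percentile 99.3 of the mean level of all loci tested. It had 862, 789 and 715 FPKM in the transgenic mice and 790, 756 and 730 FPKM in the wild-type mice. The wild-type values lay inside the range of the transgenic ones. The log2 fold change was 0.05 (95% confidence interval -0.23 to 0.34, limma adjusted p = 0.782), a ratio between 0.85 and 1.27. The table gives *Lipe* a locus of 187706 bases, on chromosome 7 from 25378712 to 25566417, that *Cxcl17*, *Ceacam1* and *Ceacam2* share with separate values, and an antisense gene runs along it.

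The monoglyceride hydrolases *Mgll* and *Abhd6* had log2 fold changes of opposite sign, neither was called, and the sign of *Mgll* turned relative to common adipocyte markers. *Mgll*, on chromosome 6 from 88724412 to 88828510, had 249, 228 and 215 FPKM in the transgenic mice and 261, 287 and 238 FPKM in the controls. Only transgenic replicate 1 reached into the wild-type range. The log2 fold change was -0.18 (95% confidence interval -0.44 to 0.08, limma adjusted p = 0.271). A second row of the table with the same symbol and position had 92.0, 86.9 and 91.6 FPKM in the transgenic and 118, 86.6 and 80.5 FPKM in the wild-type mice, with a log2 fold change of -0.05. How the reads were divided between these rows is not given in the sources used here. *Abhd6*, which also degrades the endocannabinoid 2-arachidonoylglycerol, lies on chromosome 14 from 8002693 to 8059272. It had 19.6, 23.9 and 18.7 FPKM in the transgenic mice and 21.0, 17.1 and 15.4 FPKM in the controls. Wild-type replicate 1 lay above 2 of the 3 transgenic mice, and the log2 fold change was 0.21 (95% confidence interval -0.12 to 0.53, limma adjusted p = 0.315).

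*Pnpla3*, a relative of Pnpla2 whose RNA follows feeding and lipid synthesis, lies on chromosome 15 from 84167598 to 84189834. It had 148, 105 and 115 FPKM in the transgenic mice and 110, 140 and 86.2 FPKM in the wild-type mice. The values of the genotypes alternated, and the log2 fold change was 0.14 (95% confidence interval -0.33 to 0.62, limma adjusted p = 0.641).

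The carboxylesterases lie near each other in a gene cluster on chromosome 8, *Ces1d* from 93166072 to 93197804 and *Ces1f* from 93251454 to 93279767, both on the minus strand. Ces1d is a triglyceride hydrolase of adipocytes and liver, and Ces1f is a close relative of it. The genes of this cluster are alike in sequence, so reads may be divided among them with error. *Ces1d* had 524, 446 and 441 FPKM in the transgenic mice and 676, 523 and 468 FPKM in the controls. Transgenic replicate 1 stood level with wild-type replicate 2, so the groups overlapped, and the log2 fold change was -0.23 (95% confidence interval -0.61 to 0.16, limma adjusted p = 0.35).

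*Ces1f* had 64.6, 104 and 73.9 FPKM in the transgenic mice and 171, 107 and 115 FPKM in the wild-type mice. Every transgenic mouse was below every control, but transgenic replicate 2 and wild-type replicate 2 were nearly level. Transgenic iWAT averaged 80.7 ± 20.3 FPKM and the controls averaged 131 ± 35.1 FPKM (SD, n = 3 each). The log2 fold change was -0.69 (standard error 0.23, 95% confidence interval -1.23 to -0.15), with an unadjusted limma p of 0.0196 and an adjusted p of 0.0778. The exact permutation test over the 20 arrangements of the 6 mice gave a two-sided p of 0.1, the smallest that 3 mice against 3 allow. The absolute log2 fold change was at percentile 90.3 of all loci tested. *Ces1f* was called without transgenic replicate 2, where the log2 fold change was -0.88 (limma adjusted p = 0.0399). That mouse had the highest *Ces1f* level of the transgenic mice, so leaving it out enlarges the difference. It also had the most skeletal muscle RNA, whose part in the *Ces1f* values was not tested. Over all mice left out in turn the adjusted p was between 0.0399 and 0.192. Relative to common adipocyte markers, of which 3 of 8 were called lower, the difference was -0.23 (limma adjusted p = 0.331). With *Cfd* left out of those markers it was -0.44 (limma adjusted p = 0.216), beside medians of all loci of 0.45 and 0.24. The part of the lower macrophage marker levels, or of the 3 adipocyte markers called lower, in this difference was not tested. The other carboxylesterases of this subfamily in the table (*Ces1a*, *Ces1b*, *Ces1c*, *Ces1e* and *Ces1g*) were below 0.3 FPKM in every mouse.

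**Figure D2:**
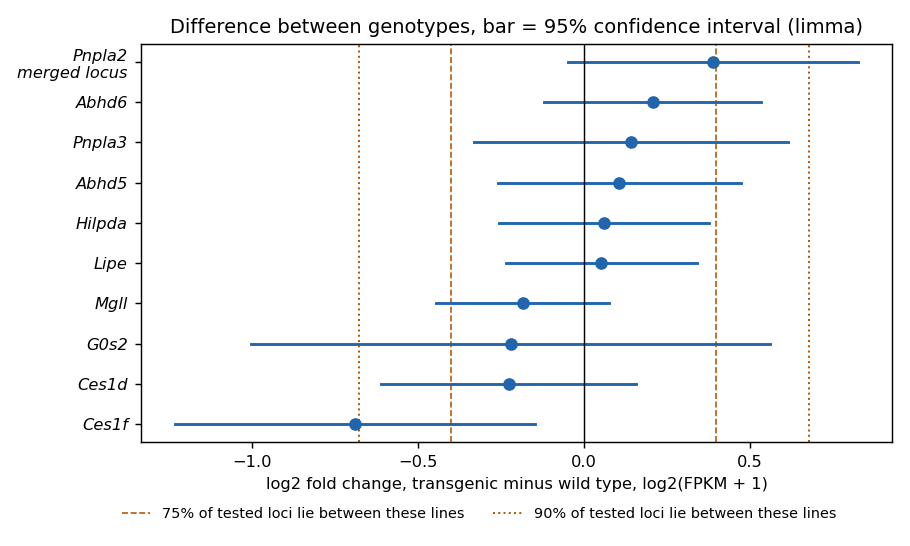
Log2 fold change of each lipolysis gene, transgenic minus wild type, on the log2(FPKM + 1) scale, with its 95% confidence interval from limma (n = 3 mice per genotype). Dashed and dotted lines enclose 75% (within 0.40 of zero) and 90% (within 0.68) of the loci tested, and only the interval of *Ces1f* leaves out zero.

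The genes of the set were also set against each other in the same mouse, since a ratio of 2 FPKM values does not depend on how a sample was scaled. For *Pnpla2* the merged locus was used. Of 8 pairs compared, the genotypes did not overlap at 3 (*Ces1d*/*Pnpla2*, *Lipe*/*Pnpla2* and *Mgll*/*Lipe*). Among single loci tested, 42.9% did not overlap, and the share among ratios of other gene pairs was not computed. Each of the 3 ratios had an exact permutation p of 0.1 and an adjusted p of 0.267 over the 8 pairs. No ratio passed the test, and none could have with 3 mice against 3.

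*Ces1d* stood at 0.228, 0.224 and 0.231 times the merged locus in the transgenic mice, against 0.346, 0.371 and 0.331 times in the controls. The transgenic values were nearly the same in the 3 mice, and all were below the lowest control. The difference of the log2 ratio was -0.62. For *Lipe* the ratio to the merged locus was 0.376, 0.396 and 0.374 in the transgenic mice, against 0.404, 0.537 and 0.517 in the controls, a log2 difference of -0.34. Wild-type replicate 1 came close to the transgenic mice here. *Mgll* to *Lipe*, which does not involve the merged locus, was 0.289, 0.289 and 0.30 in the transgenic mice, against 0.330, 0.380 and 0.326 in the controls, a log2 difference of -0.24.

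The ratio of the inhibitor *G0s2* to the merged locus was 0.226, 0.141 and 0.131 in the transgenic mice, against 0.259, 0.304 and 0.190 in the controls. Transgenic replicate 1 lay within the wild-type range, and the log2 difference of -0.61 had an exact permutation p of 0.2. The ratio of *Abhd5* to the merged locus was 0.0170, 0.0250 and 0.0218 in the transgenic and 0.0255, 0.0264 and 0.0246 in the wild-type mice, a log2 difference of -0.28 (exact permutation p = 0.2). The remaining pairs, *Hilpda*/*Pnpla2*, *Pnpla3*/*Pnpla2* and *Abhd6*/*Mgll*, differed by -0.32, -0.25 and 0.40 in log2, with exact permutation p of 0.3, 0.5 and 0.2. The log2 differences between genotypes were negative for all 6 ratios to the merged locus, and these ratios share that denominator.

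**Figure D3:**
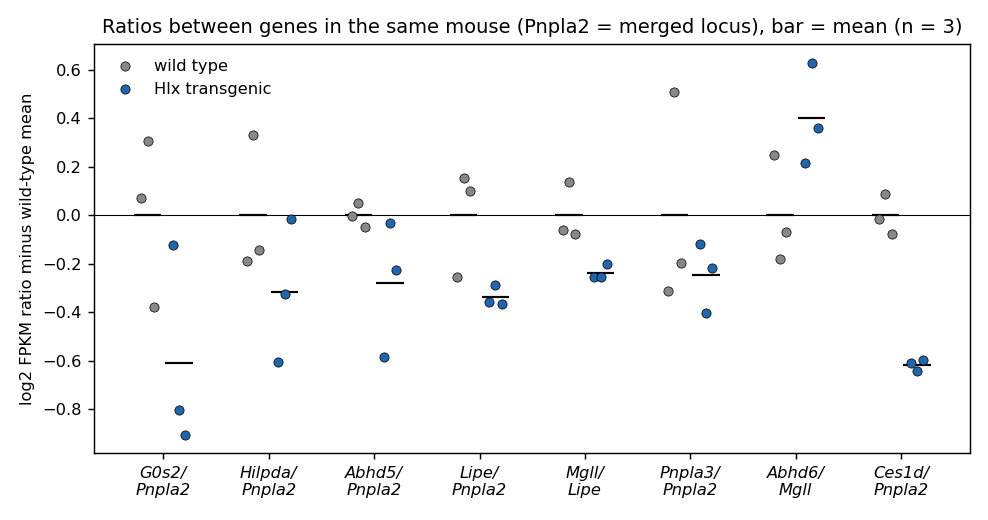
Log2 ratio of the FPKM of 2 genes in the same mouse, minus the wild-type mean of that ratio, for 8 pairs, with 1 point per mouse and bars for the means (*Pnpla2* is the merged locus). The transgenic mice lie below all controls for *Lipe*/*Pnpla2*, *Mgll*/*Lipe* and *Ces1d*/*Pnpla2*, by 0.34, 0.24 and 0.62 on average.

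By level, the merged locus made up 49.5% of the summed FPKM of the set in transgenic and 40.9% in wild-type iWAT (means of 3 mice). *Lipe* followed with 18.9% and 19.8%, *Ces1d* with 11.3% and 14.3%, and *G0s2* with 8.2% and 10.2%. *Hilpda* contributed 0.127% and 0.129%. The order from *Lipe* through *Ces1d*, *G0s2* and *Mgll* was the same in the means of both genotypes. The values of *G0s2* overlapped those of *Ces1d* in both genotypes and those of *Mgll* in wild-type iWAT, while in transgenic iWAT the lowest value of *G0s2* was just above the highest of *Mgll*. *Pnpla3* and *Ces1f* stood in a different order in the genotypes, with *Pnpla3* at 123 ± 22.2 and *Ces1f* at 80.7 ± 20.3 FPKM in transgenic iWAT and at 112 ± 27.1 and 131 ± 35.1 FPKM in wild-type iWAT (SD, n = 3 each). The median SD between mice of a genotype, on the log2 scale, was 0.22 for the 9 genes and 0.14 for all loci tested.

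Genes around the lipases were examined as well. Lists of further hydrolases, signalling genes, lipid droplet proteins, handlers of the products and transcription factors held 106 genes, of which 83 were tested, and 27 (32.5%) were called higher and 6 (7.23%) lower (limma), beside 11.6% and 7.03% of all loci tested. The share called lower was thus near that of all loci. The lists were chosen with earlier results of these data known, and their enrichment was not tested. The median log2 fold change of the lists was 0.06, beside 0.05 for the 9 lipolysis genes. Without transgenic replicate 2 these counts were 27 and 6, and when single mice were left out they ranged from 21 to 27 and from 3 to 6.

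Among lipid droplet proteins, which control access of the lipases to the stored fat, 6 of 14 tested genes were called higher and 0 lower (median log2 fold change 0.41). The largest rises were those of *Cidea* and *Cideb*, which promote droplet fusion and lipid transfer. *Cidea* rose from 164, 106 and 110 FPKM in the wild-type mice to 2123, 1498 and 1521 FPKM in the transgenic mice (log2 fold change 3.76, limma adjusted p = 0.000274). *Cideb* rose from 0.232, 0.511 and 0.363 FPKM to 14.4, 5.01 and 8.11 FPKM (log2 fold change 2.79, adjusted p = 0.00218). The perilipins, which coat the droplet, were named after their values were seen, and all 5 are given. *Plin5*, which recruits Pnpla2 and Abhd5 in oxidative tissues, had 53.8, 41.7 and 49.7 FPKM in the transgenic and 10.4, 5.95 and 7.21 FPKM in the wild-type mice (log2 fold change 2.50, limma adjusted p = 0.000665). *Plin2*, the coat protein found in most cells that store lipid, rose from 236, 291 and 206 FPKM in the controls to 566, 551 and 449 FPKM (log2 fold change 1.102, adjusted p = 0.00532). *Plin3* was called higher (log2 fold change 0.63, limma adjusted p = 0.0376), but it lost its call in 7 of 17 other settings. *Plin4* had a lower mean in the transgenic mice and was not called (log2 fold change -0.60, adjusted p = 0.0636), though it was called in 4 of the 17 other settings. *Plin1*, the main coat protein of white adipocytes, had 842, 743 and 680 FPKM in the transgenic and 748, 701 and 739 FPKM in the wild-type mice (log2 fold change 0.04, adjusted p = 0.823).

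Of 25 lipolytic signalling genes tested, 7 were called higher and 4 lower (median log2 fold change 0.09). *Adora1*, the adenosine receptor that inhibits lipolysis, and *Adrb1*, a β-adrenergic receptor, had the largest rises, with log2 fold changes of 1.37 and 1.36 (limma adjusted p = 0.00831 and 0.00971). *Adora1* went from 28.0, 24.3 and 16.9 FPKM in the wild-type mice to 76.9, 47.9 and 58.9 FPKM in the transgenic mice. *Adcy5*, an adenylyl cyclase, and *Irs1*, an insulin receptor substrate, had the largest falls, with log2 fold changes of -1.10 and -0.86 (adjusted p = 0.00842 and 0.0275). *Irs1* lost its call in 7 of 17 other settings, and *Adora1*, *Adrb1* and *Adcy5* each in 1. Other genes were named after their values were seen. *Prkar2b* and *Prkaca*, a regulatory and a catalytic subunit of protein kinase A, rose by 1.13 and 0.78 on the log2 scale (limma adjusted p = 0.00441 and 0.0168), and *Prkaca* lost its call in 2 of 17 other settings. The other subunits in the list, *Prkacb*, *Prkar1a*, *Prkar1b* and *Prkar2a*, were not called (log2 fold changes of 0.09, 0.05, 0.02 and 0.14). *Adrb3*, the main β-adrenergic receptor of mouse adipocytes, had 101.5, 127 and 74.2 FPKM in the transgenic and 168, 157 and 160 FPKM in the wild-type mice. Its log2 fold change of -0.71 was called (limma adjusted p = 0.0384), but the call was lost in 9 of 17 other settings, where the adjusted p reached 0.218.

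Other hydrolases of neutral lipids held 13 tested genes, of which 4 were called higher and 1 lower (median log2 fold change -0.03). *Dagla*, a diglyceride lipase that makes the endocannabinoid 2-arachidonoylglycerol, had 12.3, 13.4 and 15.8 FPKM in the transgenic and 5.52, 5.74 and 2.73 FPKM in the wild-type mice (log2 fold change 1.43, limma adjusted p = 0.00795). It lost its call in 1 of 17 other settings, with no filter on low values (adjusted p = 0.0556). *Ces2e*, a carboxylesterase of another subfamily, rose by 1.31 on the log2 scale (adjusted p = 0.00302) at a low level, between 0.861 and 5.01 FPKM. *Lpl*, lipoprotein lipase, fell from 1638, 1683 and 1359 FPKM to 978, 1038 and 913 FPKM (log2 fold change -0.67, limma adjusted p = 0.0209), and it lost its call in 7 of 17 other settings. These include the scaling relative to common adipocyte markers, with and without *Cfd*, and *Lpl* is itself among those markers.

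Handlers of fatty acids and glycerol held 16 tested genes, 5 called higher and 0 lower (median 0.26). *Slc27a2*, an acyl-CoA synthetase and fatty acid transporter, and *Fabp3*, the heart-type fatty acid binding protein, had log2 fold changes of 3.09 and 3.03 (limma adjusted p = 0.00207 and 0.00119), from under 2 FPKM in every wild-type mouse. *Fabp3* is also a muscle gene, with 22.1, 9.15 and 15.8 FPKM in the transgenic mice, and the part of the muscle RNA in its difference was not tested. Of 15 transcription factors and coactivators tested, 5 were called higher and 1 lower (median 0.02). *Ppara*, a nuclear receptor for fatty acids, and *Ppargc1b*, a coactivator, rose with log2 fold changes of 2.63 and 1.49 (adjusted p = 0.00192 and 0.00363), and *Rxra*, the partner of PPAR receptors, fell by 0.51 on the log2 scale (adjusted p = 0.0133). *Rxra* lost its call relative to common adipocyte markers, with and without *Cfd* among them (log2 fold changes of -0.05 and -0.26, adjusted p = 0.788 and 0.377). Whether these lists differ from the 9 lipolysis genes was not tested.

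**Figure D4:**
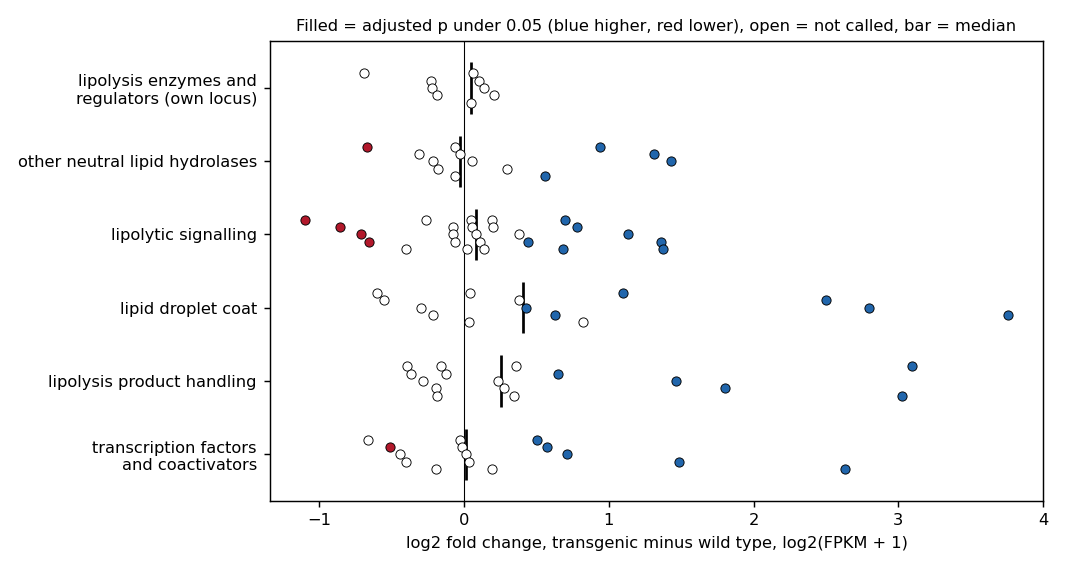
Log2 fold change, transgenic minus wild type, of the 9 lipolysis genes and of the tested genes of 5 related lists, with 1 point per gene, filled where the limma adjusted p was under 0.05 (blue higher, red lower) and bars for the list medians. All 9 lipolysis genes are open points between -0.69 and 0.21, while lipid droplet genes reach 3.76.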

How the data were processed

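RNA from iWAT of 3 transgenic and 3 wild-type mice was sequenced by the authors as single-end reads. Per the labels and methods, reads were mapped to mm10 with TopHat2 2.0.9 and Bowtie2 2.1.0 and genes were quantified with Cufflinks 2.2.1. The authors deposited FPKM values for each locus and mouse. The annotation and options are not given in the sources used here. Counts were not used.

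Genes were matched by their whole symbol. A symbol on several loci was taken from the one with the highest mean FPKM. Loci averaging above 1 FPKM in either genotype were tested on log2(FPKM + 1) with limma 3.58.1 in R 4.3.3 (eBayes with trend, two-sided, no covariates). The pseudocount understates the change of low genes. Ratios were tested by exact permutation. The procedure was tested on simulated data. Starts are printed 1-based, and overlapping genes come from GENCODE of the same build. Figures were drawn with matplotlib 3.10.9.

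The lipolysis genes, the related lists and the tests were chosen with earlier results of these data known. From each related list, up to 2 called genes with the largest log2 fold change in each direction are named by rule. Alternative settings for the related lists, for genes named after their values were seen and for the merged locus of *Pnpla2* were added after seeing the data.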

Additional observations from a re-analysis of the deposited data

How the results depend on the processing

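The count of 0 among the 9 lipolysis genes held in 15 of 18 other settings. Quantile normalization called 3 lower (*Mgll*, *Ces1d* and *Ces1f*) and moved *Lipe* to -0.24 and *Plin1* to -0.27, with 12 genes of the related lists lower. Relative to common adipocyte markers, 5 were called higher (*Pnpla3*, *Abhd5*, *Lipe*, *Hilpda* and *Abhd6*), *Mgll*, *G0s2* and *Ces1d* turned to 0.27, 0.24 and 0.23, the related lists had 48 higher and 1 lower, and all loci 5153 higher and 133 lower. Without *Cfd* among these markers, a setting chosen after seeing the data, the same genes were at 0.066, 0.029 and 0.023, with 1 gene of the lists and 162 loci lower. Sample quality weights put *Pnpla3* at -0.00032, *Lipe* at -0.0053 and *Plin1* at -0.0079. With no filter, 748 loci were higher and 381 lower, and 17 and 2 genes of the lists. At an adjusted p under 0.01, 569 loci were higher and 199 lower, with 2 list genes lower.

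With each mouse left out in turn, 780 to 1295 loci were higher and 329 to 906 lower, 0 to 1 of the 9 genes lower (*Ces1f*, without transgenic replicate 2), and 3 to 6 list genes lower. The log2 fold changes of 8 of the 9 genes, none of them called, moved by over 1.5 times, the exception being *Ces1f* (-0.88 to -0.48). *Pnpla3* ranged from -0.031 (without wild-type replicate 3) to 0.32 (wild-type replicate 2), *Hilpda* from -0.062 to 0.13 and *Mgll* from -0.25 to -0.12 (the same mice), *Lipe* from -0.013 (transgenic replicate 1) to 0.12 (transgenic replicate 3), *G0s2* from -0.54 to -0.020 (the same mice), *Abhd5* from 0.0079 to 0.26 and *Abhd6* from 0.11 to 0.32 (transgenic replicate 2, wild-type replicate 1), and *Ces1d* from -0.34 (wild-type replicate 3) to -0.076 (wild-type replicate 1). *Plin1* was at -0.037 without transgenic replicate 1. The causes were not tested. With the replicate number as a block, 0 of the 9 genes were called, 1230 loci were higher and 656 lower. What same-numbered mice share beyond the number is not given in the sources used here. Their deviations correlated at 0.013, 0.034 and 0.070 across loci, and each transgenic mouse correlated best with a control of another number. Transgenic replicates 1, 2 and 3 correlated best with wild-type replicates 2 (0.135), 3 (0.106) and 1 (0.125). With 3 mice per genotype these correlations cannot settle whether the mice were paired. Low FPKM values are the least precise in transgenic replicates 1 and 3, the shallowest libraries.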
